A study of Mus musculus with 12 samples.

Results

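The miR-30 family is a set of microRNAs, short RNAs that bind messenger RNAs by their bases 2 to 8 (the seed) and lower their output. Its members here were all assays whose name begins with miR-30 followed directly by a letter from a to e, with both arms of the hairpin included. The rule found 9 of the 504 microRNA assays. They were the 5p arms mmu-miR-30a-5p, mmu-miR-30b-5p, mmu-miR-30c-5p, mmu-miR-30d-5p and mmu-miR-30e-5p and the 3p arms of miR-30a, miR-30b, miR-30d and miR-30e. The species prefix mmu, for mouse, is left out in most places. All 9 were measured in all 12 samples.

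A hairpin is cut into a pair of strands. The guide strand is loaded into an Argonaute protein and finds targets, while most of the passenger strand is degraded. In the miR-30 family the 5p arm is the usual guide. In human fat cell precursors, miR-30a and miR-30d favour fat cell formation by lowering RUNX2, a bone-forming transcription factor, and miR-30c does so by lowering PAI-1 and ALK2. In mouse fat, miR-30b and miR-30c favour heat production by lowering RIP140, a corepressor of thermogenic genes.

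The study asked how the timing of a high-fat diet bears on microRNAs of epididymal fat, a visceral depot, in male C57BL/6J mice. In the WL group 45% of dietary energy was fat for the whole life, from mating to termination at 23 weeks. The UL group was exposed in utero and during lactation, and the UT group in utero, both through the dam. The CD group received a matching diet in which fat gave 10% of energy. In each group total RNA of 12 mice was combined in 3 pools, numbered 1 to 3, so the spread between pools is smaller than the spread between single mice would be. The labels do not say which mice or litters a pool holds, and p-values measure only the spread between these pools.

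MicroRNAs were measured by quantitative PCR as a threshold cycle (Ct), which is lower where there is more template. The relative level used here is the mean Ct of a pool over the 466 microRNAs measured in every pool, minus the Ct of the assay. It is in cycles, on a log2 scale, and a difference of 1 stands for a 2-fold step where the PCR doubles in each cycle. The sources used here give no amplification efficiency, so the order of levels between assays need not be an order of amounts. Fewer cells of a type and less RNA per cell cannot be told apart in whole fat. The median Ct of a pool lay between 24.6 and 25.3, and between 490 and 504 microRNAs were measured per pool. On the first principal component of all complete microRNAs, with 25.9% of the variance, WL 3 (21.5) and UT 2 (16.2) stood apart from the other pools (-7.67 to 2.75). As a check of the tissue, miR-26a-5p and miR-103-3p, abundant in fat, had mean Cts of 17.1 and 21.2, and the liver microRNA miR-122-5p of 25.8. The first 2 belong to a list of 4 fat microRNAs, of which miR-378a-3p and miR-193b-3p matched no assay name. The 6 microRNAs of an epithelial list had mean Cts of 21.4 to 23.4, the earliest near that of miR-103-3p. These Cts alone therefore do not settle which cells the samples held.

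Mature sequences of 5 of the 9 members were found in the RefSeq table of the mouse genome build GRCm38.p6, in 4 hairpins. They are shown to let the seeds and the differences between arms be compared. The seed is in capitals, and the first 3 are guide arms and the last 2 passenger arms.
miR-30a-5p: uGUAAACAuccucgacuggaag
miR-30c-5p: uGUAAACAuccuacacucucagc
miR-30e-5p: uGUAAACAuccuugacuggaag
miR-30a-3p: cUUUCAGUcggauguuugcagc
miR-30e-3p: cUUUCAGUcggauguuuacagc

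MiR-30a lies at chr1:23272274-23272295 (5p) and chr1:23272315-23272336 (3p), both on the plus strand. MiR-30e lies at chr4:120772660-120772681 (5p) and chr4:120772618-120772639 (3p), both on the minus strand. MiR-30c-5p comes from 2 hairpins, Mir30c-2 at chr1:23291714-23291736 on the plus strand and Mir30c-1 at chr4:120769584-120769606 on the minus strand, and 1 assay cannot tell them apart. The hairpins form pairs of neighbours: 19361 bases separate Mir30a from Mir30c-2, and 2983 separate Mir30c-1 from Mir30e. The RefSeq table has no entry for the arms of miR-30b and miR-30d, so the seed counts given here say nothing about their seeds. The 3 guide arms found there shared the seed GUAAACA, which 4 of the 1679 mature names of the table carry, the fourth being miR-384-5p. The assay named miR-384 does not state its arm, so no value is given for it. Both passenger arms found there shared the seed UUUCAGU, which no other name of the table carries. MiR-30a-5p and miR-30e-5p differ at 1 of 22 bases, C13U (miR-30a base, position from the 5′ end, miR-30e base), and their passenger arms at 1 of 22, G18A. MiR-30c-5p differs from each of the other 2 guides at 5 of 22 bases. Whether the assays tell sequences this close apart was not tested.

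The guide arms were among the abundant microRNAs of the depot. Ranked by mean level among 504 microRNAs, miR-30c-5p was 22nd at 6.67, miR-30d-5p 31st at 6.00, miR-30a-5p 49th at 5.20, miR-30e-5p 54th at 5.04 and miR-30b-5p 83rd at 3.84. The passenger arms were spread widely. MiR-30a-3p (3.21, rank 105) and miR-30e-3p (3.03, rank 110) lay close to the lowest guide. MiR-30b-3p was 354th at -2.18, and miR-30d-3p 501st at -8.41, with Cts of 31.7 to 35.6.

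On the relative level all 5 guide arms had the same order of group means: WL highest, then CD, then UL, and UT lowest. The guides follow each other over the pools, so this is not 5 separate observations. Scaled to the reference RNA RNU-43, their mean was instead above CD in each group, by 0.24 in WL, 0.18 in UL and 0.23 in UT. Neighbouring groups in the order of the relative level were close. Of the 3 steps between neighbouring groups in each of the 5 guides, which measured 0.01 to 0.52, only that from UL to UT for miR-30c-5p (0.52) exceeded the SD within groups of the same assay (0.34 for miR-30c-5p, and 0.34 to 0.55 over the 5 guides). No member passed the threshold of 0.05 on the limma adjusted p in any comparison between groups. The mean level over the 5 guides was 5.69 ± 0.16 in WL, 5.28 ± 0.59 in UL, 4.96 ± 0.52 in UT and 5.47 ± 0.19 in CD (SD, n = 3 pools each).

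The most abundant guide, mmu-miR-30c-5p, stood at 6.73, 7.16 and 6.68 in WL 1 to 3, 7.08, 6.50 and 6.65 in UL 1 to 3, 6.34, 6.67 and 5.65 in UT 1 to 3, and 6.76, 6.74 and 7.05 in CD 1 to 3. Its UT pools were all below its CD pools, and UT 3 was lowest by far. The guide mmu-miR-30d-5p stood at 6.24, 6.31 and 6.30 in WL, 6.69, 5.83 and 5.30 in UL, 5.63, 6.19 and 5.05 in UT, and 6.23, 6.10 and 6.12 in CD. Its WL and CD pools were tightly grouped, while UL held both its highest pool and a low one. The level of mmu-miR-30a-5p, which in human cells favours fat cell formation, stood at 5.63, 5.35 and 5.47 in WL, 5.76, 4.97 and 4.55 in UL, 5.57, 5.19 and 4.10 in UT, and 5.80, 5.08 and 4.91 in CD. Its groups overlapped throughout.

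The level of mmu-miR-30e-5p, which differs from miR-30a-5p by the 1 base given above, stood at 6.00, 5.59 and 5.15 in WL, 5.46, 4.62 and 4.46 in UL, 4.88, 4.80 and 3.98 in UT, and 5.66, 5.09 and 4.81 in CD. All its WL pools were above all its UT pools. The level of mmu-miR-30b-5p, which lowers RIP140 in mouse fat, stood at 4.46, 4.33 and 3.93 in WL, 4.81, 3.23 and 3.33 in UL, 3.86, 3.42 and 3.02 in UT, and 3.97, 3.79 and 3.86 in CD. Its 3 CD pools lay close together, and its UL pools lay on both sides of them.

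**Figure D1:**
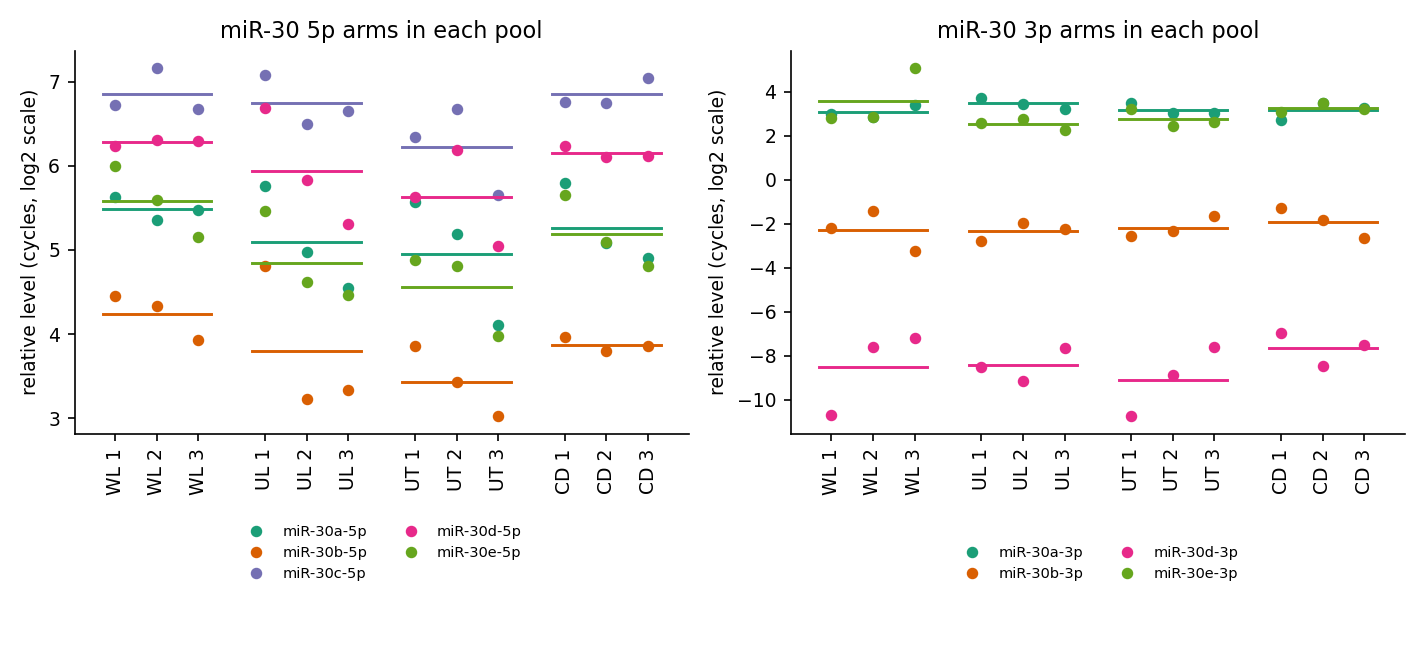
Relative level (cycles, log2 scale) of the 5 guide (5p) arms, left, and the 4 passenger (3p) arms, right, in each of the 12 pools, with a line at each group mean of 3 pools. The guide arms keep their distances from pool to pool and are lowest in UT 3, while miR-30d-3p ranges from -10.74 to -6.95 and miR-30e-3p stands at 5.06 in WL 3.

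In single pools all guides stood high or low at once. UT 3 was the lowest of the 12 pools for 5 of 5 guides. In WL 1, WL 2, UL 1 and CD 1 all 5 guides were above their own median over the pools, and in UL 2, UL 3 and UT 3 none was. The mean over the guides was 5.96 in UL 1, the highest of all pools, against 5.03 in UL 2 and 4.86 in UL 3. It was 5.25 in UT 1, 5.26 in UT 2 and 4.36 in UT 3.

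Whole-life exposure was set against the control diet first. All 5 guides were higher in WL than in CD, by 0.01 (miR-30c-5p) to 0.39 (miR-30e-5p), with a median of 0.22. Over all 504 microRNAs the median difference was -0.06, and 43.5% were above 0. None of the 9 members passed the threshold (limma adjusted p of 0.956 or more), and none had an unadjusted p under 0.05. Of all microRNAs, 0.595% passed and 7.14% had an unadjusted p under 0.05. The 95% intervals of the guides ran from -0.75 to 1.29, from 0.595-fold to 2.44-fold. MiR-30d-5p alone had pools that did not overlap, with 6.24 as the lowest WL pool and 6.23 as the highest CD pool, and 11% of the 481 microRNAs with all 6 values were separated in this way. Of the passenger arms, 1 of 4 was above 0, with a median of -0.21. That was miR-30e-3p, described below, whose difference of 0.31 (SE 0.53) turned to -0.43 without WL 3.

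Exposure up to weaning gave differences on the other side of 0. In UL all 5 guides were lower than in CD, by 0.08 (miR-30b-5p) to 0.34 (miR-30e-5p) cycles, and the median difference was -0.17, against -0.07 over all microRNAs. Scaled to the reference RNA RNU-43 the guides' median turned to 0.20, with all microRNAs at 0.30, and with the mean of RNU-43 and U6-snRNA to 0.02, with all at 0.12. None of the 9 members passed (limma adjusted p of 0.995 each), where 0.595% of all microRNAs did, and none had an unadjusted p under 0.05, against 2.78% of all. The guides' 95% intervals ran from -1.21 to 0.84. The mean over the guides differed by -0.18, with no settled direction: it was -0.52 without UL 1, -0.05 without UL 2, 0.03 without UL 3 and -0.07 without CD 1. Of the passenger arms 1 of 4 was above 0, miR-30a-3p at 0.32 (SE 0.31), while miR-30b-3p was at -0.41 (SE 0.50) and miR-30d-3p at -0.78 (SE 0.95). MiR-30e-3p was the 1 member whose UL and CD pools did not overlap, with a difference of -0.72 (SE 0.53), and 7.88% of 495 microRNAs were separated like it.

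Exposure in utero alone was compared with the control diet last. All 5 were lower in UT than in CD, though not when scaled to RNU-43 (below). The differences were -0.63 for miR-30c-5p (SE 0.33) and miR-30e-5p (SE 0.40), -0.53 for miR-30d-5p (SE 0.39), -0.44 for miR-30b-5p (SE 0.42) and -0.31 for miR-30a-5p (SE 0.44). Their median was -0.53, against -0.01 over all microRNAs, of which 48.8% were above 0. None of the 9 members passed (lowest limma adjusted p = 0.582, for miR-30c-5p), where 1.39% of all microRNAs did, and none had an unadjusted p under 0.05, against 10.1% of all. The guides' intervals ran from -1.51 to 0.66, so a guide 2-fold lower in UT was not excluded, nor was no difference. MiR-30c-5p was the 1 member with separated pools, and 14% of 480 microRNAs had them. Of the passenger arms 1 of 4 was above 0, miR-30a-3p at 0.03 (SE 0.31), and the lowest was miR-30d-3p at -1.43 (SE 0.95), with a median of -0.38.

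UT 3 carried much of this difference. Over the guides the mean of UT minus CD was -0.51 with all pools and -0.21 without UT 3, and for miR-30c-5p it was -0.63 and -0.35. The choice of scale mattered as well. RNU-43, a small nucleolar RNA often used as a reference, stood at 6.96, 6.89 and 6.37 in UT and at 7.73, 7.13 and 7.59 in CD. Scaled to RNU-43, the median difference of all microRNAs in UT became 0.73 and that of the guides 0.21, which is 0.52 below it. A scaling shifts all assays of a pool alike. This distance is therefore nearly fixed in advance and is no check of the scaling.

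Marker lists of other cells were read beside the guides in UT. The 6 epithelial microRNAs (the miR-200 family, which includes miR-141-3p, and miR-205-5p) had a median difference of -2.37 in UT, with 0 of 6 above 0. In the limma fit 4 of 6 had an unadjusted p under 0.05 and 0 passed the adjusted threshold, against 10.1% and 1.39% of all microRNAs. The mean level of these 6 was 0.24 to 2.25 in UT pools and 1.71 to 4.26 in CD pools, and UT 3 (0.53) was the second lowest of all pools. The 4 stromal and smooth muscle microRNAs had a median of -0.53, with 0 of 4 above 0, and mean levels of 5.00 to 5.42 in UT and 5.54 to 6.04 in CD, and here too UT 3 (5.03) was the second lowest. The 7 leukocyte microRNAs had a median of -0.68, with 3 of 7 above 0, and mean levels of 1.06 to 1.78 in UT and 1.45 to 2.13 in CD. UT 3 was their highest UT pool (1.78) and the 7th lowest of all 12. For the 2 endothelial microRNAs, the arms of miR-126a, it was the 10th lowest (7.54). In UT these arms went opposite ways, miR-126a-3p by -1.19 and miR-126a-5p by 1.36. Both had an unadjusted p under 0.05 in the limma fit, and neither passed the adjusted threshold. For the 4 muscle microRNAs UT 3 was the lowest of all pools (-1.93). The part of these cells in the miR-30 difference was not tested.

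**Figure D2:**
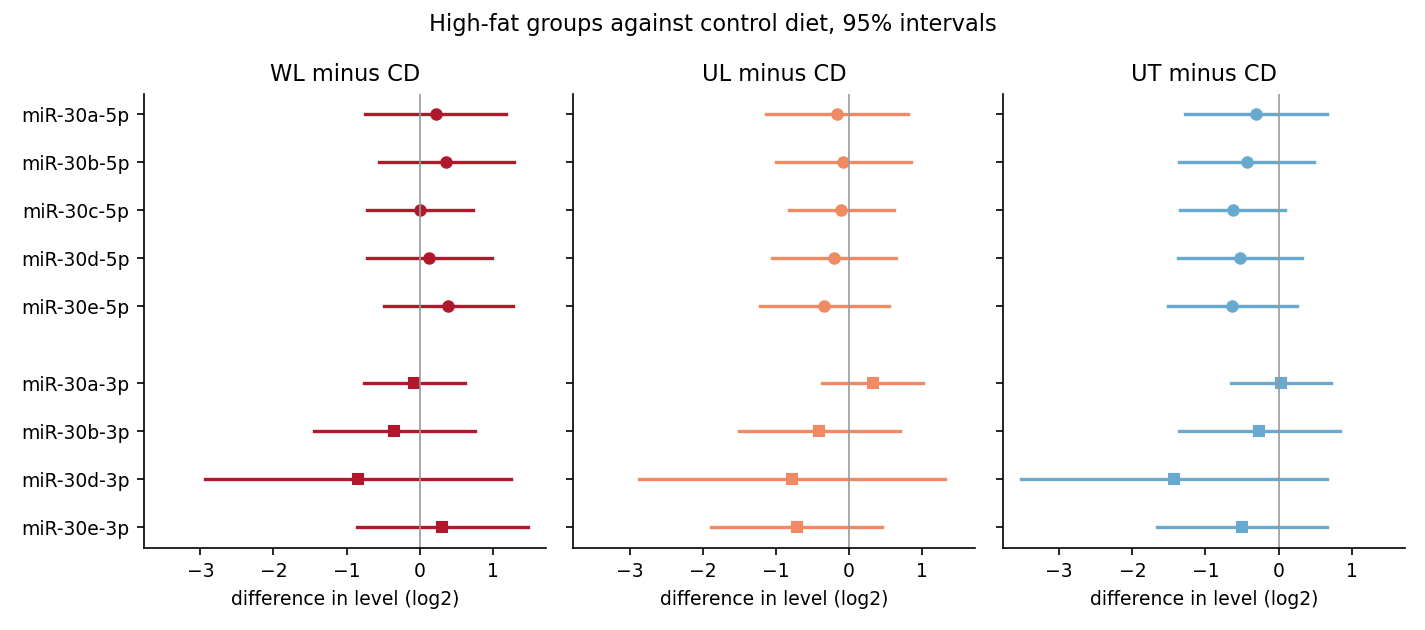
Difference in relative level (log2) between WL, UL or UT and CD for each member, circles for guide arms and squares for passenger arms, with the 95% interval of the limma fit (3 pools per group). Every interval includes 0, and the guide arms lie to the right of 0 in WL and to the left in UL and UT, where scaling to RNU-43 turns the guides' median to 0.20 and 0.21.

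WL was then set against UT. All 5 guides were higher in WL than in UT, with a median of 0.66, against -0.09 over all microRNAs. MiR-30e-5p differed by 1.02 (SE 0.40), a 2.03-fold difference with a 95% interval of 1.11 to 3.74. It was the 1 member in all 6 comparisons with an unadjusted p under 0.05 (0.0258), and its limma adjusted p was 0.262. In that comparison 0% of microRNAs passed the adjusted threshold and 15.7% had an unadjusted p under 0.05. The differences of the other guides were 0.80 for miR-30b-5p, 0.66 for miR-30d-5p, 0.63 for miR-30c-5p and 0.53 for miR-30a-5p, with limma adjusted p between 0.371 and 0.574. The WL and UT pools of 4 of 5 guides did not overlap, those of miR-30c-5p only just (lowest WL pool 6.68, highest UT pool 6.67). Of 471 microRNAs with all 6 values, 19.3% were separated, and 9.98% had all WL pools above all UT pools as these guides did. The guides follow each other over the pools, so the 4 are not independent counts. The mean over the guides differed by 0.73, by 0.43 without UT 3, and by 0.0053 when scaled to RNU-43, where miR-30a-5p, miR-30c-5p and miR-30d-5p lay below 0.

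Between WL and UL the guides differed by 0.11 to 0.73, and between UL and UT by 0.14 to 0.52, each with the first group higher for 5 of 5 guides, where 46.8% and 46.6% of all microRNAs were above 0. The guide mean of UL minus UT, 0.33, turned to -0.05 when scaled to RNU-43 and to -0.01 without UL 1, and was 0.03 without UT 3. That of WL minus UL, 0.40, was 0.06 when scaled to RNU-43, 0.74 without UL 1 and 0.19 without UL 3. No member passed in either comparison, with limma adjusted p of at least 0.805 and 0.752. Neither did any other microRNA (0% and 0%), and 5.36% and 7.94% had an unadjusted p under 0.05. In the F test over the 4 groups the lowest adjusted p of a member was 0.621, for miR-30e-5p. In that test 0.397% of all microRNAs passed, and 9.92% had an unadjusted p under 0.05, none of them a member. These comparisons share pools, so the common direction of the guides in them is not repeated evidence.

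The passenger arms gave a less even picture than the guides. MiR-30a-3p varied least over the pools of all 9 members, with an SD of 0.31, and stood between 2.71 in CD 1 and 3.72 in UL 1. MiR-30b-3p stood between -3.22 in WL 3 and -1.27 in CD 1. MiR-30d-3p stood at -10.68, -7.61 and -7.17 in WL, -8.52, -9.13 and -7.66 in UL, -10.74, -8.89 and -7.61 in UT, and -6.95, -8.49 and -7.51 in CD. Its 2 lowest values, in WL 1 and UT 1, came from Cts of 35.6 and 35.4, near the end of the measured range, where few template molecules start the reaction.

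MiR-30e-3p stood at 2.80, 2.83 and 5.06 in WL, 2.59, 2.74 and 2.27 in UL, 3.22, 2.44 and 2.60 in UT, and 3.05, 3.48 and 3.23 in CD. WL 3 stood far above the next highest pool, CD 2. Its difference between WL and UL, 1.03 (SE 0.53, limma adjusted p = 0.805), was 0.30 without WL 3.

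The guide came earlier than its passenger in 12 of 12 pools in all 4 hairpins with both arms measured. This difference within a pool does not depend on the scaling, but its size includes the efficiencies of both assays. It averaged 1.99 ± 0.58 cycles for miR-30a, 2.02 ± 0.84 for miR-30e, 6.01 ± 0.86 for miR-30b and 14.4 ± 1.35 for miR-30d (SD, n = 12 pools). Across 95 hairpins of the table with both arms measured, the 5p arm came earlier in 49, and the median difference was 0.19. No other hairpin had a larger difference than miR-30d, 9 had one larger than miR-30b, 34 larger than miR-30e and 35 larger than miR-30a.

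The arm difference of miR-30a was 2.65, 2.53 and 2.07 in WL, 2.04, 1.52 and 1.34 in UL, 2.09, 2.18 and 1.07 in UT, and 3.09, 1.61 and 1.67 in CD. The groups overlapped, apart from WL (lowest 2.07) and UL (highest 2.04), and 8.99% of 89 hairpins with all 6 values were separated between these groups. That of miR-30e was 3.20, 2.76 and 0.09 in WL, 2.87, 1.88 and 2.19 in UL, 1.66, 2.36 and 1.38 in UT, and 2.60, 1.61 and 1.58 in CD. In WL 3 the arms of miR-30e were thus nearly level. The lowest difference of miR-30b was 4.66, in UT 3, and the highest 7.58, in UL 1. For miR-30d the lowest was 12.7, in UT 3, and the highest 16.9, in WL 1. Diet groups did not differ detectably in any hairpin: the exact permutation test of the F statistic over all 369600 assignments of pools to groups gave p = 0.379 for miR-30a, 0.654 for miR-30b, 0.854 for miR-30d and 0.935 for miR-30e. Adjusted over the 4 hairpins each was 0.935. In UT 3 the difference was the smallest of the 12 pools for miR-30a, miR-30b and miR-30d.

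**Figure D3:**
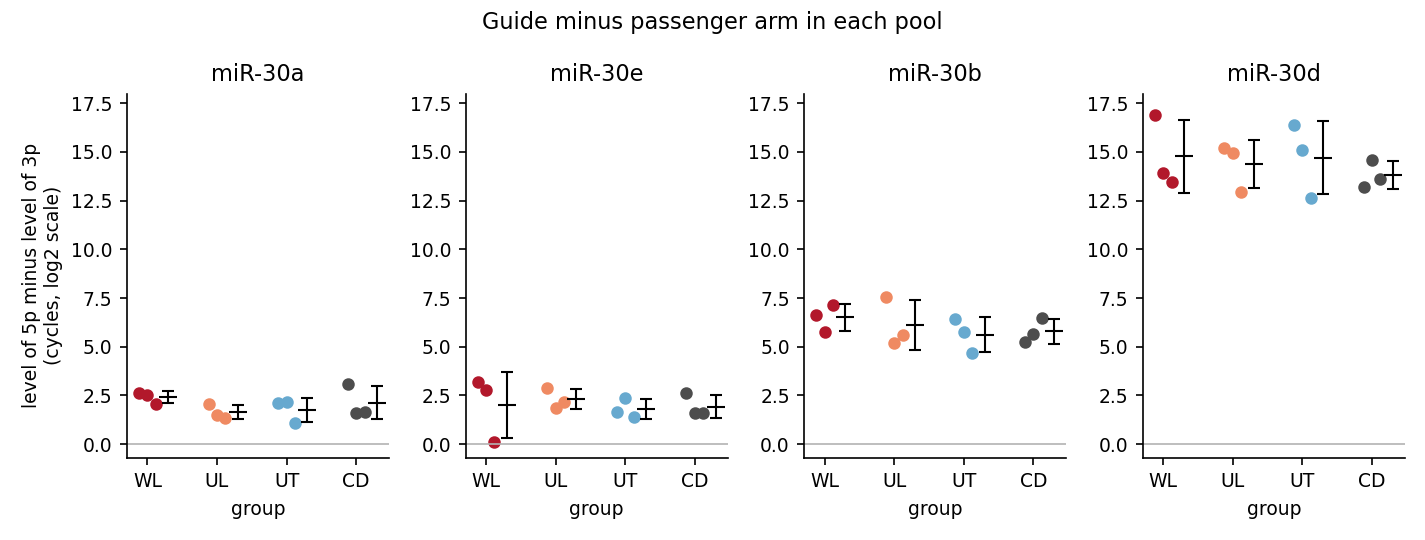
Level of the 5p arm minus level of the 3p arm (cycles, log2 scale) of 4 miR-30 hairpins in each pool, by group, with the mean and SD of 3 pools in black. All values are above 0, from 0.09 for miR-30e in WL 3 to 16.92 for miR-30d in WL 1, and the groups overlap except WL and UL for miR-30a.

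The guides followed each other closely over the 12 pools, and the passengers followed them less closely. The measure used is the SD over pools of the difference in level between 2 assays, which is free of the scaling and is small where a pair keeps its distance. It was 0.27 to 0.42 for the 10 pairs of guides, with a median of 0.32. For the 20 pairs of a guide and a passenger it was 0.49 to 1.49, with a median of 0.81, and for the 6 pairs of passengers 0.72 to 1.38, with a median of 1.21. Over all 108345 pairs of complete microRNAs the median was 0.86, and over the 3081 pairs at least as abundant as miR-30b-5p it was 0.69. All these pairs were read over the same 12 pools, with the same group structure. The spread of each assay also enters this measure. Over the pools the SD was 0.40 to 0.57 for the guides, 0.31 for miR-30a-3p and 0.58 for miR-30b-3p. It was 0.73 for miR-30e-3p, which stood far higher in WL 3, and 1.27 for miR-30d-3p, which had late Cts.

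The closest pair was miR-30c-5p and miR-30d-5p at 0.273. MiR-30a-5p and miR-30e-5p, which differ by 1 base, had 0.285, and so did miR-30b-5p and miR-30e-5p. The widest pair of guides was miR-30a-5p and miR-30c-5p at 0.425, whose hairpins Mir30a and Mir30c-2 are neighbours on chromosome 1. MiR-30c-5p and miR-30e-5p, with neighbouring hairpins on chromosome 4, had 0.419. Of the same hairpin, guide and passenger had 0.583 for miR-30a, 0.842 for miR-30e, 0.856 for miR-30b and 1.35 for miR-30d.

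**Figure D4:**
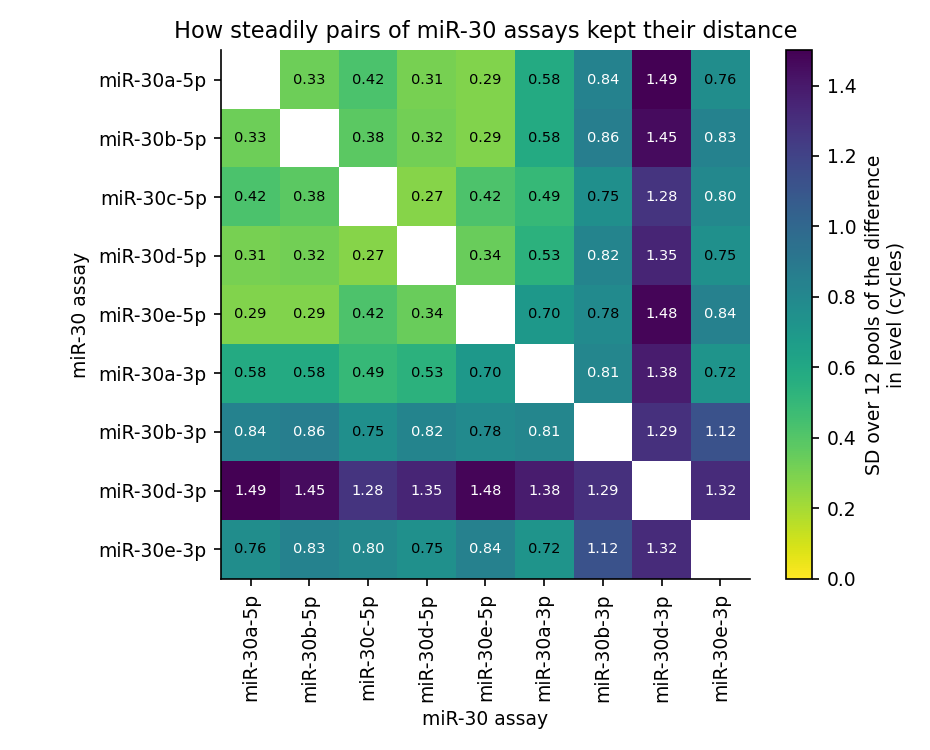
SD over 12 pools of the difference in level (cycles) between each pair of miR-30 assays, with darker cells for pairs that kept their distance less. The block of 5p arms at the upper left holds values of 0.27 to 0.42, and pairs with miR-30d-3p hold 1.28 to 1.49.

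Among 457 microRNAs outside the family that were measured in all pools, the 5 that kept the steadiest distance from the mean of the guides were miR-337-3p (SD 0.200), miR-99a-5p (0.221), miR-505-3p (0.226), miR-181a-1-3p (0.250) and miR-223-3p (0.255), the last of which the leukocyte list also holds. The median of the 457 was 0.718. The guides themselves had 0.221 (miR-30d-5p) to 0.326 (miR-30c-5p) against the mean of the other 4. The differences from CD of these 5 microRNAs are a description: in UT they were -0.68 for miR-505-3p and miR-223-3p, -0.61 for miR-337-3p, -0.50 for miR-181a-1-3p and -0.29 for miR-99a-5p. In UT 3 all 5 stood 0.51 to 1.29 cycles below their own median. They were picked for following the guides over these same pools, so their low levels there follow in part from the choice.

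Other microRNAs known from fat were read from lists. Of 14 measured pro-adipogenic microRNAs, 16 anti-adipogenic ones and 14 thermogenic or browning ones, 0 passed in WL, UL or UT against CD (lowest limma adjusted p = 0.280). An unadjusted p under 0.05 was found for 1 pro-adipogenic microRNA in UT, miR-143-3p (-1.06), which the stromal list also holds and which is named after its values were seen, and for 0 in all the other list comparisons with CD. The median differences of the pro-adipogenic list were -0.03 in WL, 0.04 in UL and -0.25 in UT. Those of the anti-adipogenic list were -0.05 in WL, -0.05 in UL and -0.04 in UT, and those of the thermogenic list 0.01 in WL, -0.05 in UL and -0.17 in UT. The most abundant members were miR-21a-5p and miR-26a-5p, let-7b-5p and let-7c-5p, and miR-93-5p and miR-196a-5p. In UT miR-93-5p, an inhibitor of fat cell formation in mouse, differed from CD by -0.74, and miR-196a-5p, which favours browning of white fat in mouse, by -0.65. The adipogenic miR-21a-5p and miR-26a-5p differed by 0.12 and -0.02, and the anti-adipogenic let-7b-5p and let-7c-5p by -0.32 and -0.12.

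A table of fold changes was deposited for the same pools, and its column named WL gives the guides the other direction. In the authors' deposited table the values of all 5 guides were above 1 in each of the columns named WL (1.33 to 1.53), UL (1.33 to 1.53) and UT (1.42 to 1.74). The deposited ratios grow with later Ct, so a value above 1 there goes with less template. The column named UT matched UT 1, UT 2 and UT 3 in 506 of 506 assays. The column named UL matched UL 1, UT 2 and UT 3, and the column named WL matched UL 1, UL 2 and UT 3, a set without a WL pool. All 3 columns therefore hold UT 3, the lowest pool of every guide. Recomputed from the deposited normalized ratios of WL 1 to 3 themselves, 1 of 5 guides was above 1 (0.806 to 1.07). From those of UL 1 to 3 all 5 guides stayed above 1 (1.13 to 1.32), the direction of the lower levels in UL.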

How the data were processed

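Ct values of 504 microRNA assays and 2 reference RNAs in 12 pools of epididymal fat RNA (miRNeasy kit, per the labels' protocols) were deposited before normalization, per the file headers, and were tested here. The sources used here give neither PCR platform nor Ct settings. The other deposited values are ratios: normalized values, and fold changes as ratios of group means. Against the Ct, the normalized ratios equalled 2 to the power of Ct minus a constant of each pool (24.7 to 25.5, deviation at most 0.0053), the reverse of their header. Of 507 rows, 1 repeated row was dropped; 55 microRNA values were missing and left missing.

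Groups were compared with limma 3.58.1 (lmFit, eBayes, two-sided; R 4.3.3) in 1 fit of 4 groups over 12 pools, with Benjamini-Hochberg adjustment over 504 microRNAs and a threshold of 0.05. Arm differences were tested by exact permutation, whose smallest possible p is 6.49e-05. Both scripts were tested on simulated data. Replicate numbers were checked for pairing: 7 of 18 same-numbered pairs correlated above 0.1 (-0.27 to 0.26). Differently numbered pairs also reached 0.31 (WL 3 and UT 2) and -0.35 (UL 1 and UT 3). Pools were not paired, though the check cannot show whether the numbers mark shared handling. Alternatives covered scaling, filters, late Ct, weights, neighbouring assays and left-out pools.

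Named were all members, microRNAs sharing a member's seed, the 5 nearest to the guide mean, and, of 3 fat lists, members past the threshold or else the 2 most abundant of each. The members and lists were chosen with earlier results of these data known. Marker lists (leukocyte, erythroid, endothelial, muscle, liver, epithelial, stromal and smooth muscle, fat, kidney) had median differences from CD in UT of -0.68, 0.18, 0.09, -0.07, -0.42, -2.37, -0.53, -0.37 and -0.45, in that order. The endothelial median stands between miR-126a-3p at -1.19 and miR-126a-5p at 1.36.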

Additional observations from a re-analysis of the deposited data

How the results depend on the processing

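No member passed the threshold, and no arm difference between groups did, under any of the alternatives run. The lowest limma adjusted p of a member over them was 0.559 for WL against CD, 0.796 for UL against CD, 0.161 for UT against CD, 0.447 for WL against UL, 0.208 for UL against UT, 0.120 for WL against UT and 0.185 over the 4 groups. The lowest adjusted exact p of an arm difference was 0.391. Leaving out 1 pool at a time left 0 calls, at the lowest and the highest. It moved the mean difference of the guides to 0.16 to 0.34 in WL, -0.52 to 0.03 in UL and -0.66 to -0.21 in UT against CD, 0.19 to 0.74 for WL against UL, -0.01 to 0.54 for UL against UT and 0.43 to 0.88 for WL against UT. For the passengers the ranges were -0.50 to 0.13, -0.46 to -0.31, -0.75 to -0.37, -0.10 to 0.53, -0.02 to 0.36 and 0.05 to 0.67 for the same comparisons. Scaled to U6-snRNA (10 pools with a value, without WL 3 and UT 1), the guide mean was 0.57 for WL against CD and 1.26 for WL against UT. Leaving out WL 3 alone, without that scaling, already gave 0.33 for WL against CD. Scaled to RNU-43, it was 0.23 for UT against CD and 0.0053 for WL against UT, and the passenger mean was -0.033 for UL against CD, 0.20 for UT against CD, -0.24 for UL against UT and -0.42 for WL against UT. With the mean of both reference RNAs, the guide mean was 0.52 for WL against CD, and the passenger mean was -0.21 for UL against CD, 0.026 for UT against CD, -0.24 for UL against UT and -0.33 for WL against UT. These scalings also move the median of all microRNAs. Relative to it the guides' median was 0.21 to 0.29 above in WL, and in UT it was at -0.61 to -0.52. A scaling shifts all assays of a pool alike, so these distances are nearly fixed in advance and do not test the scaling. The ends 0.21 and -0.61 come from settings with U6-snRNA, which lack WL 3 and UT 1. With neighbouring assays subtracted as deviations from the mean of all pools, a setting added once the data had been seen, the guide mean was 0.33 for WL against UT. The neighbours were up to 5 assays on each side in the order of database identifiers, and how many were members was not counted. Group differences that the neighbours share are also subtracted in this setting. With the replicate number as a block, the guide mean was 0.22 in WL, -0.18 in UL and -0.51 in UT against CD, as without it, with 0 members called. The passenger mean could not be given among microRNAs with a mean Ct under 30, since miR-30d-3p is left out there. The count of all microRNAs past the threshold ranged from 0 to 9 for WL against CD (3 in the main setting), 0 to 8 for UL against CD (3), 1 to 19 for UT against CD (7), 0 to 1 for WL against UL (0), 0 to 13 for UL against UT (0), 0 to 18 for WL against UT (0) and 0 to 15 over the 4 groups (2). The number of pools, and late Cts for miR-30d-3p, limit the precision.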
